A study of Homo sapiens with 15 samples.

Results

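The genes described here are CDH13 (T-cadherin), the classical cadherins CDH1 (E-cadherin), CDH2 (N-cadherin), CDH3 (P-cadherin), CDH4 (R-cadherin) and CDH11 (OB-cadherin), and the catenins CTNNA1 (alpha-catenin), CTNNB1 (beta-catenin), CTNND1 (p120-catenin) and JUP (plakoglobin). All 10 genes were on the array. They were read from all 15 probes whose transcript maps to one of these symbols, of 50599 probes for 20503 genes. The genes themselves were chosen with earlier results of these data known. Gene expression was measured on 15 arrays of SCC13, a cell line from a human cutaneous squamous cell carcinoma. All cells carried a stably transfected pUNO plasmid and had been grown under blasticidine. SCC13-pUNO cells carried the control plasmid. SCC13-TLR4 cells carried the plasmid with TLR4, the receptor for bacterial lipopolysaccharide (LPS), joined to GFP, and were the fraction with the highest GFP signal after sorting. Untreated cells were measured on 4 arrays of SCC13-pUNO and 3 of SCC13-TLR4, and cells given LPS at 10 μg/ml for 24 h on 4 arrays of either line. Each plasmid was studied in 1 line, so TLR4 and any other difference between these lines cannot be told apart.

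Classical cadherins are calcium-dependent adhesion molecules that hold neighbouring cells together at adherens junctions. Their cytoplasmic tails bind p120-catenin and either beta-catenin or plakoglobin, and alpha-catenin links this complex to actin, while free beta-catenin acts as a coactivator of Wnt target genes. T-cadherin has the extracellular cadherin repeats but no cytoplasmic tail, is held in the membrane by a lipid anchor, and binds adiponectin. In epidermis E-cadherin is found throughout the living layers, P-cadherin and T-cadherin mainly in the basal layer, and N-cadherin is better known from neural and mesenchymal cells.

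Every value below is a log2 intensity minus that of the 75th percentile of its array, so a gene called higher is higher relative to that percentile. The arrays were hybridized on 2 slides, the first with 8 arrays and the second with 7. On slide 1 were 3 of 4 untreated SCC13-pUNO arrays, 1 of 3 untreated SCC13-TLR4 arrays and 2 of 4 arrays of each LPS-treated group. The array labelled untreated SCC13-pUNO replicate 2 had a TLR4 signal (probe A_24_P69538) of 3.04, inside the 2.84 to 3.19 of the SCC13-TLR4 arrays and against its label, where the other SCC13-pUNO arrays were at -6.40 to -3.80. The second TLR4 probe (A_32_P66881), at -6.63 to -4.96, was well above background on 0 of the 15 arrays, so it could not check the labels. The array was kept under its label, and the differences of the members in untreated cells are given with and without it. Nothing in the labels says that replicates came from separate experiments, so p-values measure the spread between these arrays. Of the keratinocyte markers, 7 of 8 were well above background on all 15 arrays (KRT5, KRT14, KRT17, TP63, SFN, ITGA6 and LAMB3). Of 7 fibroblast markers 0 were on all 15 arrays, and 6 were on none, COL1A1 being on 6 arrays. Markers of other cell types were mixed: of the leukocyte markers PTPRC and CD68 were on all 15 arrays and CD3E on 8, and of 4 melanocyte markers PMEL was on all 15, TYR on 4, MLANA on 2 and DCT on 1. Of 4 endothelial markers CDH5 was on all 15, VWF on 14, PECAM1 on 10 and KDR on 0. The part of such cells or transcripts in the results was not tested.

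Of the 15 member probes, 13 were tested, being well above background throughout 1 or more of the groups, for 8 of the 10 genes. CDH4 was not well above background on any of the 15 arrays. CDH11 was above background on 3 of 4 and 2 of 3 untreated arrays of SCC13-pUNO and SCC13-TLR4 cells and on 1 of 4 and 2 of 4 LPS-treated arrays, so it was not tested. The remaining 8 genes were CDH13, CDH1, CDH2, CDH3, CTNNA1, CTNNB1, CTNND1 and JUP, of which 5 had 2 tested probes. For these the brighter probe is described first, and values of different probes are not set against each other, since the brightness of a probe depends on its sequence.

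CDH13 was higher in SCC13-TLR4 than in SCC13-pUNO cells under LPS by both of its probes, with no overlap between the groups, but by no test that corrects for the 22685 probes tested. In untreated SCC13-pUNO cells CDH13 (A_32_P85999) was at -1.50, -0.74, -1.15 and -1.56 on the arrays of replicates 1 to 4, and in untreated SCC13-TLR4 cells it was at -0.67, -1.15 and -0.85. With LPS it was at -1.38, -1.39, -1.43 and -1.13 in SCC13-pUNO cells and at -0.91, -0.77, -0.98 and -0.82 in SCC13-TLR4 cells. The untreated groups overlapped because SCC13-pUNO replicate 2, the array whose TLR4 signal goes against its label, was higher in CDH13 than all SCC13-TLR4 arrays but replicate 1 of the untreated cells, and because SCC13-pUNO replicate 3 reached the lowest SCC13-TLR4 array. The LPS-treated groups did not overlap, every SCC13-TLR4 array being above every SCC13-pUNO array.

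**Figure D1:**
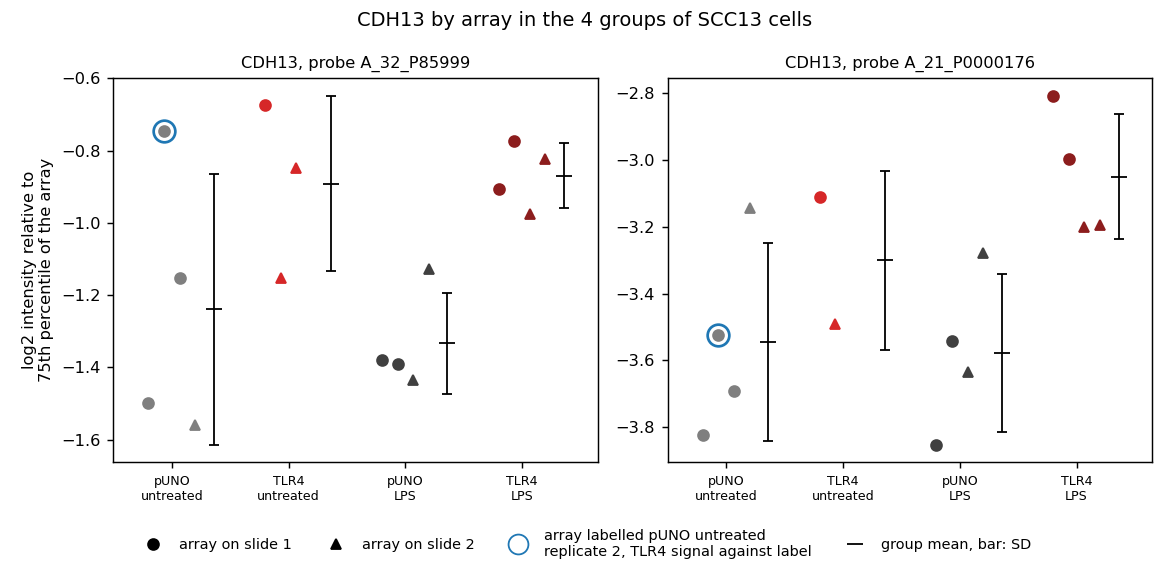
CDH13 on each array by its brighter probe A_32_P85999 (left) and its dimmer probe A_21_P0000176 (right), in log2 units above the array's 75th percentile, in the 4 groups. Circles are arrays of slide 1, triangles arrays of slide 2, and the bars beside them give the group mean and SD. With LPS the 4 SCC13-TLR4 arrays lie above the 4 SCC13-pUNO arrays in both panels, and the ringed array is the one whose TLR4 signal goes against its label.

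With LPS the log2 fold change of CDH13 was 0.46 (SE 0.17, 95% confidence interval 0.10 to 0.83, 1.38-fold), higher in 16 of 16 pairs of arrays. The exact permutation test gave p = 0.0286, the smallest that 4 arrays against 4 allow, and limma gave an unadjusted p = 0.0158 and an adjusted p = 1.00. The dimmer probe of CDH13 (A_21_P0000176) was at -3.85, -3.54, -3.63 and -3.28 in LPS-treated SCC13-pUNO cells and at -2.81, -3.00, -3.20 and -3.19 in LPS-treated SCC13-TLR4 cells. There was no overlap here either, and the dimmer probe was higher by 0.53 (SE 0.17, exact permutation p = 0.0286, limma adjusted p = 1.00). Of the 15 arrays, 13 had that probe well above background, and the exceptions were 2 of the 4 arrays of LPS-treated SCC13-pUNO cells. Over all probes tested, 0.56% lay higher in LPS-treated SCC13-TLR4 cells without overlap and 0.727% lower, and the 2 CDH13 probes were the members among them. CDH13 is also one of the genes that the study singled out from these same arrays, as upregulated, so its difference is not independent evidence. The study's rule was an absolute log-fold change over 2 and an FDR-adjusted p under 0.05. Neither CDH13 probe met that rule here, and 0 of the 22685 probes tested did in either comparison of lines. TLR4 itself did not, with a log2 fold change of 8.86 with LPS (limma adjusted p = 0.312) and 6.32 in untreated cells (limma adjusted p = 0.999). Without the array whose TLR4 signal goes against its label, TLR4 was at 8.41 in untreated cells (limma adjusted p = 1.4e-05). The study also states that gene expression was checked by PCR, which these arrays do not cover. More CDH13 RNA per cell and more cells with CDH13 RNA cannot be told apart here.

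Deviations from the group means went together between LPS-treated arrays of the 2 lines on the same slide, whether or not their replicate numbers matched. The LPS-treated arrays with the same replicate number shared a slide. In these 4 pairs CDH13 was higher in SCC13-TLR4 cells by 0.47, 0.62, 0.46 and 0.31 for the brighter probe and by 1.05, 0.55, 0.43 and 0.085 for the dimmer one. The mean difference of the brighter probe was 0.55 on slide 1 and 0.38 on slide 2. A fit of the LPS-treated arrays alone with the replicate number as a block gave CDH13 the same log2 fold change of 0.46 with an SE of 0.10 and a limma adjusted p = 0.787. Over all probes that fit called 4, where a fit of the LPS-treated arrays alone without the block called 5 and the fit of all 15 arrays called 0.

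In untreated cells the log2 fold change of CDH13 was 0.35 (SE 0.18, 95% confidence interval -0.04 to 0.74), higher in 9 of 12 pairs (exact permutation p = 0.257, limma adjusted p = 0.999). Within slide 1 the difference was 0.46 and within slide 2 it was 0.56. With that questionable SCC13-pUNO array left out it was 0.51 (SE 0.15), higher in 8 of 9 pairs, with an exact permutation p = 0.2, where 3 arrays against 3 allow no p under 0.1, and a limma adjusted p = 1.00. The dimmer probe was at -3.82, -3.52, -3.69 and -3.14 in untreated SCC13-pUNO cells and at -3.11 and -3.49 in untreated SCC13-TLR4 cells, which overlapped. The spot on SCC13-TLR4 replicate 3 was marked as an outlier by the scanner software and was left out. The log2 fold change of the dimmer probe was 0.24 (SE 0.21, exact permutation p = 0.333, limma adjusted p = 0.999), with 0.57 within slide 1 and -0.35 within slide 2, where 1 array stood against 1. Without the questionable array it was 0.25 (SE 0.23, higher in 5 of 6 pairs).

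Over untreated and LPS-treated cells together the mean log2 fold change of CDH13 was 0.41 (SE 0.12, 1.32-fold, limma unadjusted p = 0.00576, adjusted p = 0.996). An exact permutation test within the treatments gave p = 0.0102 over 2450 arrangements. For the dimmer probe the mean was 0.39 (SE 0.14, limma unadjusted p = 0.0150, adjusted p = 0.996). Without the array whose TLR4 signal goes against its label, the mean of the brighter probe was 0.49 (SE 0.10, limma adjusted p = 0.258), and CDH13 was higher in 47 of 49 pairs of 7 SCC13-TLR4 and 7 SCC13-pUNO arrays. Among all probes 0.128% were higher and 0.123% lower in this split without any overlap, and 0 of the 13 member probes were among them. Among the 13 member probes, 0 had an adjusted p under 0.05 in the mean, where 0.022% of all probes did, and 2 were higher at an unadjusted p under 0.05, both of CDH13, where 1.96% of all probes were. At that level 0 member probes were lower, where 2.37% of all probes were.

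CDH13 did not differ detectably between LPS-treated and untreated cells of either line. In SCC13-pUNO cells the log2 fold change with LPS was -0.09 (SE 0.17, 95% confidence interval -0.46 to 0.27, exact permutation p = 0.743), and in SCC13-TLR4 cells it was 0.02 (SE 0.18, 95% confidence interval -0.37 to 0.41, exact permutation p = 0.886). The difference between these responses was 0.12 (SE 0.25, limma adjusted p = 1.00). These are values of the brighter probe, and changes of up to 1.33-fold in SCC13-TLR4 cells lie inside its interval. The dimmer probe gave -0.03 (SE 0.17) in SCC13-pUNO cells and 0.25 (SE 0.21, 95% confidence interval -0.21 to 0.71) in SCC13-TLR4 cells. Its responses differed by 0.28 (SE 0.27), and changes of up to 1.64-fold in SCC13-TLR4 cells lie inside its interval. Changes within these intervals could not be seen with this number of arrays.

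Among the classical cadherins, the differences of CDH1, CDH3 and CDH2 between the lines were within the spread of the arrays. CDH1, the main cadherin of epithelial cells, was at 2.89, 2.79, 3.00 and 2.92 in untreated SCC13-pUNO cells and at 2.95, 2.61 and 2.85 in untreated SCC13-TLR4 cells (A_23_P206359). In LPS-treated cells the values were 2.78, 2.80, 3.12 and 2.90 in SCC13-pUNO and 2.95, 2.60, 2.60 and 2.78 in SCC13-TLR4. The 3 lowest arrays of the series were all of SCC13-TLR4 cells, near 2.6, but others of these cells lay among the highest, so both pairs of groups overlapped. CDH1 had a log2 fold change of -0.10 without LPS (SE 0.13, exact permutation p = 0.4, limma adjusted p = 0.999) and -0.17 with LPS (SE 0.12, 95% confidence interval -0.42 to 0.09, exact permutation p = 0.229, limma adjusted p = 1.00). The untreated difference was -0.13 (SE 0.14) without the array whose TLR4 signal goes against its label. With all arrays, the untreated difference was 0.06 within slide 1 and -0.20 within slide 2. With LPS it was -0.02 within slide 1 and -0.32 within slide 2. The probe was spotted 10 times on each array, and the SD among its spots on an array had a median of 0.056, below the SD of 0.086 to 0.17 between arrays of a group.

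CDH3, the cadherin of basal keratinocytes, was among the steadiest probes measured. It was at 4.17, 4.39, 4.20 and 4.31 in untreated SCC13-pUNO cells and at 4.38, 4.45 and 4.43 in untreated SCC13-TLR4 cells (A_23_P49155). The LPS-treated SCC13-pUNO arrays lay at 4.36, 4.18, 4.56 and 4.28 and the LPS-treated SCC13-TLR4 arrays at 4.26, 4.21, 4.37 and 4.32. Its SD within groups was 0.11, lower than that of all but 2.56% of probes. In untreated cells the groups touched only through the array whose TLR4 signal goes against its label, which at 4.39 lay above the lowest SCC13-TLR4 array. The untreated lines differed by 0.16 (SE 0.11, exact permutation p = 0.0857, limma adjusted p = 0.999), and without that array it was 0.20 (SE 0.11, 9 of 9 pairs, exact permutation p = 0.1, the smallest possible, limma adjusted p = 1.00). With LPS it was -0.05 (SE 0.10, 95% confidence interval -0.26 to 0.16).

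CDH2, the cadherin whose gain beside a loss of CDH1 is a textbook sign of a mesenchymal shift, was at -0.70, -0.90, -1.0 and -1.17 in untreated SCC13-pUNO cells and at -0.91, -1.30 and -1.24 in untreated SCC13-TLR4 cells (A_33_P3214159). With LPS it was at -0.83, -1.32, -0.53 and -1.15 in SCC13-pUNO cells and at -0.74, -1.02, -0.95 and -1.16 in SCC13-TLR4 cells. Both pairs of groups overlapped, and the widest spread was that of LPS-treated SCC13-pUNO cells. CDH2 gave a log2 fold change of -0.21 without LPS (SE 0.19, exact permutation p = 0.2, limma adjusted p = 0.999) and -0.01 with LPS (SE 0.17, 95% confidence interval -0.38 to 0.36). The dimmer CDH2 probe (A_23_P38732) ranged from -4.03 to -2.82 and gave -0.35 in untreated cells (SE 0.27) and 0.11 with LPS (SE 0.25). Its sign was thus the same as that of the brighter probe without LPS and opposite with LPS. Within slides the untreated difference was -0.04 and -0.10 for the brighter probe and -0.13 and -0.45 for the dimmer one. With the array whose TLR4 signal goes against its label left out, untreated cells gave -0.19 (SE 0.21) for the brighter probe and -0.36 (SE 0.30) for the dimmer one.

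CDH4 and CDH11 were at or near background. CDH4, known from retina and brain, lay between -6.75 and -4.17 on the 15 arrays, none of them well above background. CDH11, known from mesenchymal cells and osteoblasts, lay between -5.03 and -3.19 and was well above background on 8 arrays spread over all 4 groups.

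**Figure D2:**
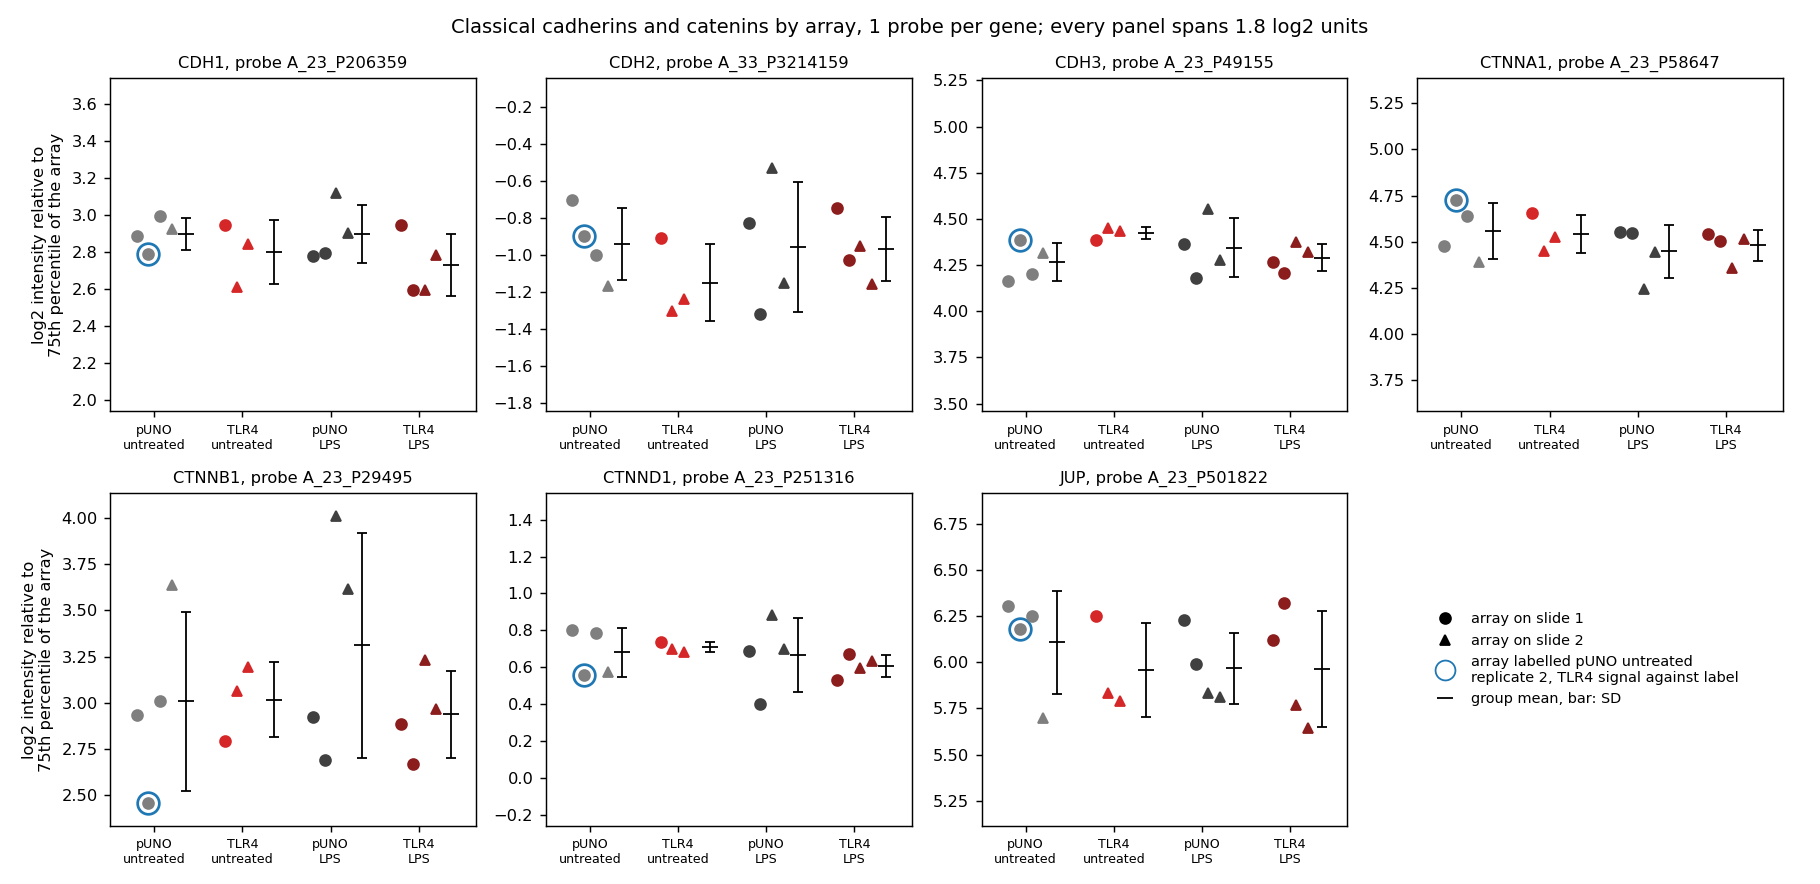
The brightest probe of each other tested member on each array, in log2 units above the array's 75th percentile, in the 4 groups. Every panel spans the same range, with circles for slide 1, triangles for slide 2 and bars for the group mean and SD. CDH3, CTNNA1 and CTNND1 lie within narrow bands in all groups, CTNNB1 is widest in SCC13-pUNO cells, and the arrays of JUP part by slide within every group.

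CTNNB1 and JUP, the catenins that take the same place on the cadherin tail, followed the slide of the array more than the group. CTNNB1 was at 2.94, 2.46, 3.01 and 3.64 in untreated SCC13-pUNO cells and at 2.79, 3.06 and 3.19 in untreated SCC13-TLR4 cells (A_23_P29495). In LPS-treated cells the values were 2.92, 2.69, 4.01 and 3.61 in SCC13-pUNO and 2.89, 2.67, 3.23 and 2.96 in SCC13-TLR4. The 3 arrays above 3.6 were the SCC13-pUNO arrays of slide 2, and slide 2 was higher than slide 1 in 55 of 56 pairs of arrays, by a mean of 0.59. The second CTNNB1 probe (A_33_P3421695) went the other way, being lower on slide 2 in 56 of 56 pairs, by 0.32, with 1.33 to 1.61 on slide 1 and 0.90 to 1.20 on slide 2. Slide took 54.8% of the variance of the brighter probe and 75.1% of that of the second, against a median of 35.4% over all probes. These shares were above those of 67.3% and 85.4% of all probes. The groups took 13.5% and 4.35%, against a median of 12.9%, so in the medians of all probes too slide took more than group.

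Between the lines, the brighter CTNNB1 probe gave log2 fold changes of 0.01 without LPS (SE 0.31) and -0.37 with LPS (SE 0.29, 95% confidence interval -0.99 to 0.25, exact permutation p = 0.314, limma adjusted p = 1.00). Slide 1 alone gave -0.03 with LPS, and slide 2 alone gave -0.72. In untreated cells slide 1 alone gave -0.006 and slide 2 alone gave -0.51, so the pooled 0.01 had the opposite sign of both. The second probe gave -0.08 (SE 0.16) and 0.07 (SE 0.15), so the pooled values of the probes had opposite signs in both comparisons. Leaving out the array whose TLR4 signal goes against its label, which was the lowest array of the brighter probe, turned the untreated difference of that probe to -0.18 (SE 0.31), while the second probe stayed at -0.08 (SE 0.18). The brighter probe was spotted 10 times per array with a median SD of 0.046 among spots, below its SD of 0.20 to 0.61 between arrays of a group. On untreated SCC13-TLR4 replicate 1, however, 1 of the 10 spots was marked as an outlier by the scanner software, and with that spot kept the array was at 1.86 in place of 2.79 and the log2 fold change in untreated cells became -0.30.

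JUP, which sits in adherens junctions and in desmosomes, was at 6.31, 6.18, 6.25 and 5.70 in untreated SCC13-pUNO cells and at 6.25, 5.83 and 5.79 in untreated SCC13-TLR4 cells (A_23_P501822). The LPS-treated SCC13-pUNO arrays lay at 6.23, 5.99, 5.83 and 5.81 and the LPS-treated SCC13-TLR4 arrays at 6.12, 6.32, 5.77 and 5.64. All 8 arrays of slide 1 were at 5.99 or more and all 7 of slide 2 at 5.83 or less, a mean difference of -0.44, and slide took 86.5% of the variance. Of the 13 member probes, 2 were lower on slide 2 without overlap, JUP and the second CTNNB1 probe, and 0 were higher, where 12.9% and 8.69% of all probes were. Between the lines JUP differed by -0.15 without LPS (SE 0.20, exact permutation p = 0.457) and -0.003 with LPS (SE 0.18, 95% confidence interval -0.40 to 0.39). Within slides it was 0.005 and 0.11 in untreated cells, so the pooled value had the opposite sign of both. It was -0.13 (SE 0.22) without the array whose TLR4 signal goes against its label.

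**Figure D3:**
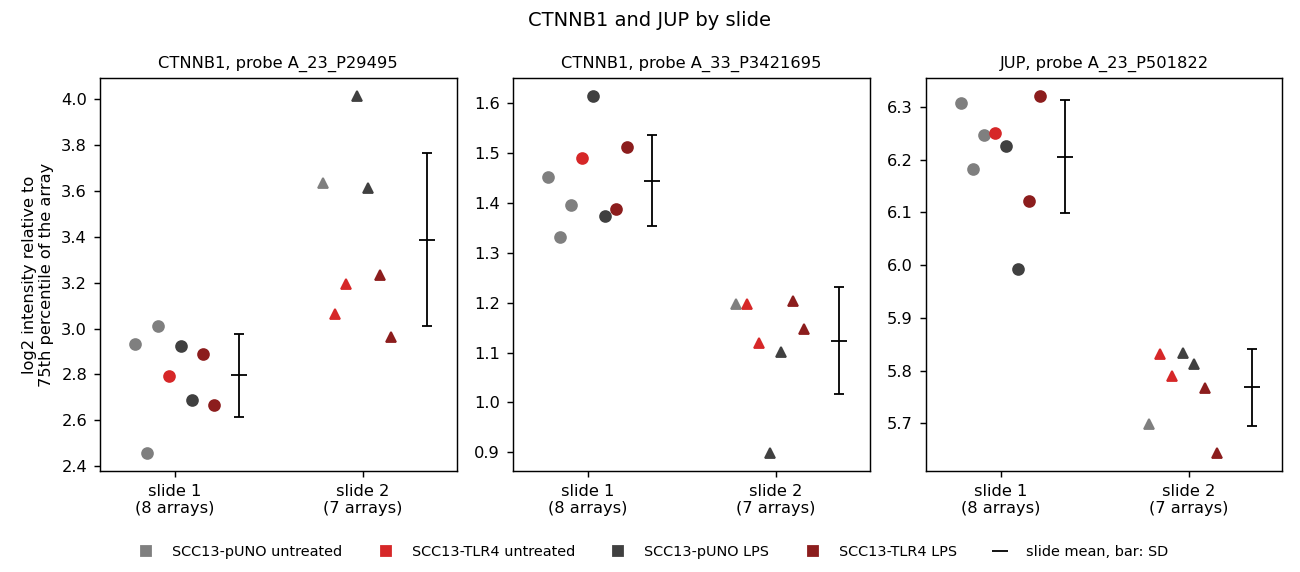
Both CTNNB1 probes and JUP on each array, in log2 units above the array's 75th percentile, with arrays placed by slide and coloured by group; bars give the mean and SD of a slide. The brighter CTNNB1 probe is higher on slide 2, by 0.59 on average, while the second CTNNB1 probe and JUP are lower there, by 0.32 and 0.44, with no overlap between the slides.

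The brighter probes of CTNNA1 and CTNND1 were steady within groups, each with an SD of 0.13, but that of CTNNA1 also followed slide. CTNNA1, the link to actin, was at 4.48, 4.72, 4.64 and 4.39 in untreated SCC13-pUNO cells and at 4.66, 4.45 and 4.52 in untreated SCC13-TLR4 cells (A_23_P58647). With LPS it was at 4.55, 4.55, 4.24 and 4.45 in SCC13-pUNO cells and at 4.54, 4.50, 4.36 and 4.52 in SCC13-TLR4 cells. CTNNA1 had a log2 fold change of -0.01 without LPS (SE 0.12, 95% confidence interval -0.26 to 0.23) and 0.03 with LPS (SE 0.11, 95% confidence interval -0.20 to 0.26), so differences beyond about 1.2-fold lie outside these intervals. Within slides the untreated difference was 0.04 and 0.10, so the pooled value had the opposite sign of both. Slide took 47.8% of the variance of this probe, against a median of 35.4% over all probes. Slide 2 was higher than slide 1 in 4 of 56 pairs of arrays, with a mean difference of -0.16. The second CTNNA1 probe (A_33_P3403418), at 1.68 to 2.53, gave 0.04 (SE 0.17) and 0.07 (SE 0.16). Without the array whose TLR4 signal goes against its label the untreated differences were 0.04 (SE 0.12) for the brighter probe, of the opposite sign, and 0.07 (SE 0.19) for the second.

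CTNND1, which holds cadherins at the membrane, was at 0.80, 0.56, 0.79 and 0.57 in untreated SCC13-pUNO cells and at 0.74, 0.70 and 0.69 in untreated SCC13-TLR4 cells (A_23_P251316). In LPS-treated cells the values were 0.69, 0.40, 0.89 and 0.70 in SCC13-pUNO and 0.53, 0.67, 0.59 and 0.63 in SCC13-TLR4. The SCC13-TLR4 arrays lay inside the range of the SCC13-pUNO arrays both without and with LPS. CTNND1 differed by 0.03 (SE 0.12) without LPS and -0.06 (SE 0.11, 95% confidence interval -0.29 to 0.17) with LPS. The second CTNND1 probe (A_33_P3209716), at -3.18 to -2.55, gave -0.09 (SE 0.16) and -0.06 (SE 0.14). When the array whose TLR4 signal goes against its label was dropped, the second probe differed by -0.18 in untreated cells (SE 0.16, lower in 9 of 9 pairs, exact permutation p = 0.1, the smallest possible, limma adjusted p = 1.00) and the brighter probe by -0.01 (SE 0.13).

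**Figure D4:**
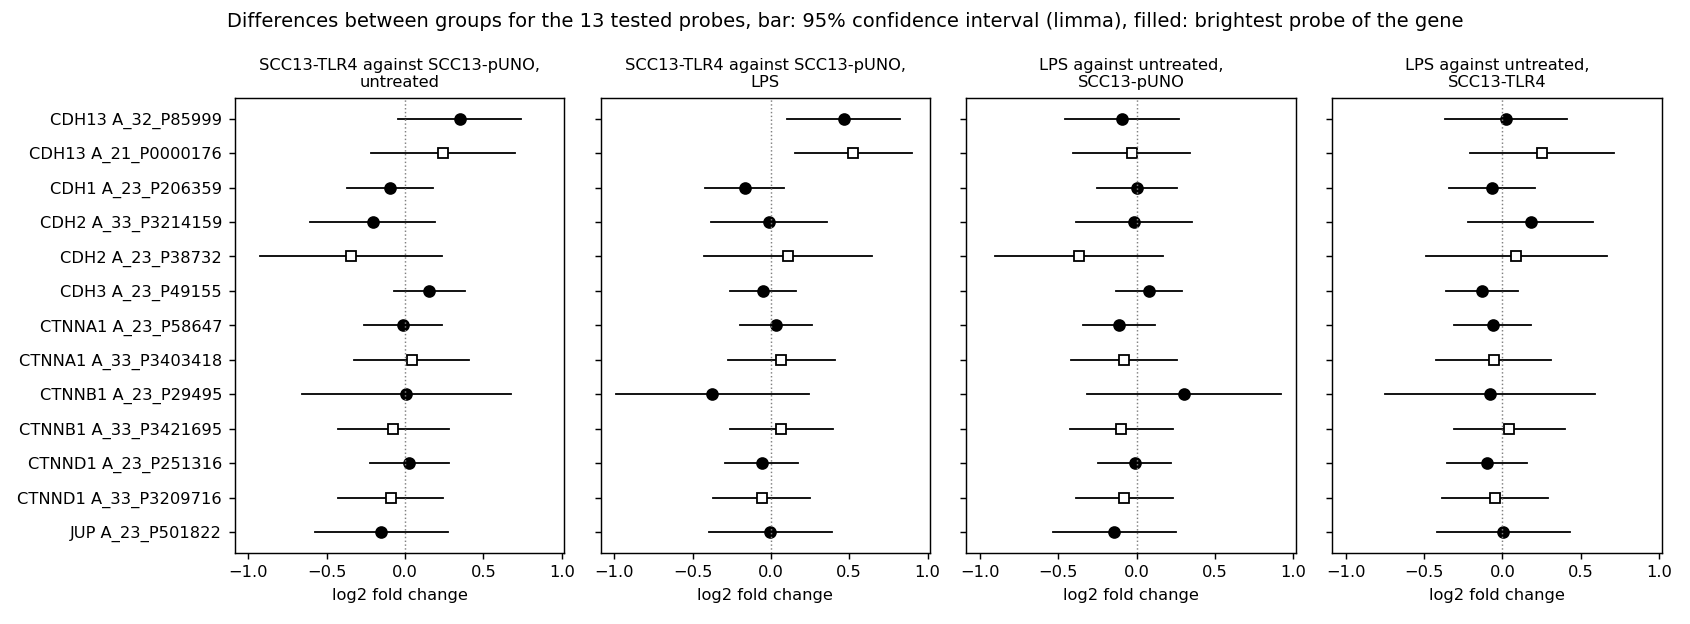
Log2 fold changes of the 13 tested probes in the comparisons of lines and of LPS treatment, with 95% confidence intervals from limma; filled circles are the brightest probe of a gene and open squares its other probe. The intervals of the 2 CDH13 probes in the comparison of LPS-treated lines are the ones that lie wholly to one side of 0.

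Counted over the 13 probes, the lines differed little in these genes. In untreated cells 6 probes were higher and 7 lower in SCC13-TLR4 cells, 0 had a limma adjusted p under 0.05 (0% of all probes had), 0 an unadjusted p under 0.05 (1.62% of all probes were higher and 0.877% lower at that level) and 0 had groups without overlap (2.15% higher and 1.58% lower). Without the array whose TLR4 signal goes against its label, 0 had a limma adjusted p under 0.05 (0.0309% of all probes), the brighter CDH13 probe was higher at an unadjusted p under 0.05 (1.62% of all probes were), and 0 were lower (0.732% were). In that split 1 probe was higher without overlap, that of CDH3 (4.16% of all probes), and 1 lower, the second of CTNND1 (3.08% of all probes). With LPS 6 were higher and 7 lower, 0 had a limma adjusted p under 0.05 (0% of all probes), and 2 were higher at an unadjusted p under 0.05 (1.27% of all probes), both of CDH13, and 0 lower (1.45% of all probes). With 1 probe per gene, the median log2 fold change of the 8 genes was -0.003 in untreated cells and -0.03 with LPS, where the median of all probes was -0.02 and -0.01. CDH13 had the largest positive difference of the 8 genes both without and with LPS. These comparisons share no arrays, but they share the lines and the slides. CDH13 was also singled out by the study from these arrays, so its rank is not an independent repeat.

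LPS itself moved none of these genes past the threshold in either line. In SCC13-pUNO cells 3 of the 13 probes were higher with LPS and 10 lower, with 0 past a limma adjusted p of 0.05 (0% of all probes), 0 past an unadjusted p of 0.05 (2.05% of all probes higher and 0.432% lower) and 0 without overlap (0.965% higher and 0.309% lower). Without the array whose TLR4 signal goes against its label these counts of members were the same, with 0 past a limma adjusted p of 0.05 (0% of all probes), 0 past an unadjusted p of 0.05 (1.7% higher and 0.313% lower) and 0 without overlap (1.63% higher and 0.529% lower), and the brighter CDH13 probe was at 0.07 (SE 0.14). With all arrays the largest difference was that of the dimmer CDH2 probe, at -0.37 (SE 0.25, exact permutation p = 0.286). In SCC13-TLR4 cells 6 were higher and 7 lower, again with 0 past a limma adjusted p of 0.05 (0% of all probes) or an unadjusted p of 0.05 (0.948% higher and 0.379% lower). Here 2 probes lay lower with LPS without overlap, where 0.736% of all probes did. They were CDH3, at -0.13 (SE 0.11), and the brighter CTNND1 probe, at -0.10 (SE 0.12), each with an exact permutation p = 0.0571 and a limma adjusted p = 1.00. The response of SCC13-TLR4 cells differed from that of SCC13-pUNO cells by -0.21 (SE 0.14) for CDH3 and -0.09 (SE 0.16) for CTNND1, and 0 of 13 probes had a limma adjusted p under 0.05 or an unadjusted p under 0.05 in that comparison (0% at the adjusted level, 0.401% higher and 0.917% lower at the unadjusted level).

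Among the members, the share of variance that goes with the line was highest in CDH13, given here as a description of these arrays. The line took 49.1% of the variance of the brighter CDH13 probe, more than in 99.3% of all probes, and slide took 1.30%. CDH1 came next with 22.2% for the line and 0.322% for slide. Its line difference was nonetheless uneven between slides, with LPS -0.02 within slide 1 and -0.32 within slide 2. In the other tested members with a value on every array the line took between 0.002% and 5.50%, where the median of all probes was 3.48%. LPS took at most 14.2%, in the brighter CTNNA1 probe, against a median of 2.17% over all probes.

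The genes whose pattern over the 15 arrays was most like that of CDH13, after the mean of each slide had been taken off, were TMEM171 (Pearson's r = 0.919), ABCC2 (0.918), AK4 (0.895), MOB3B (0.878) and VPS13A (0.878). All 5 were higher in SCC13-TLR4 cells without and with LPS, with mean log2 fold changes of 0.17 to 0.43, the largest for MOB3B. For CDH1 the genes most alike were MDM1 (0.970), KDM4C (0.960), MACIR (0.953), WDR5 (0.947) and HNRNPC (0.929), with mean log2 fold changes of -0.18 to -0.09. These values were picked as the highest among all probes of the same arrays, which share libraries and scaling, and are a description. The line differences of CDH13 and CDH1 were part of the patterns matched, so the shared directions are not a separate result. Among the members themselves, CDH13 had an r of 0.602 with CTNNA1 and -0.616 with CTNNB1, and CDH1 had 0.746 with CTNNB1, in the same slide-centred values.

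Genes that work with these molecules were read from lists, 1 probe per gene. Of 16 other cadherins 3 were tested, CDH5, CDH22 and CDH24, while 7 were not well above background on any array. With LPS, 1 of these 3, CDH24, was higher at an unadjusted p under 0.05, where 1.27% of all probes were, by 0.31 (SE 0.13, exact permutation p = 0.0286, limma adjusted p = 1.00), from -0.03 ± 0.22 (SD, n = 4) in SCC13-pUNO cells to 0.28 ± 0.11 (SD, n = 4) in SCC13-TLR4 cells. Without LPS it differed by -0.01 (SE 0.14), and the largest difference was that of CDH5, at -0.50 (SE 0.41). CDH5 is the cadherin of endothelial cells.

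Of 22 partners of the adherens junction, such as vinculin, nectins, afadin and actinins, 18 were tested. In untreated cells 9 were higher and 9 lower in SCC13-TLR4 cells, with a median log2 fold change of -0.004, and with LPS 6 were higher and 12 lower, with a median of -0.03. CTNNAL1, a relative of alpha-catenin, was the 1 gene of the 18 lower at an unadjusted p under 0.05 with LPS, where 1.45% of all probes were, at -0.22 (SE 0.10, limma adjusted p = 1.00), and it was at -0.19 (SE 0.11) without LPS. Among partners well above background on all arrays the largest differences were those of NECTIN3 in untreated cells, at 0.46 (SE 0.52), and of PLEKHA7 with LPS, at -0.33 (SE 0.40), both smaller than their error. Larger values came from genes that 1 array took below the background rule. ARVCF was at -1.48 (SE 0.76) in untreated cells, with SCC13-TLR4 replicate 1 at -6.53 and all other arrays between -2.89 and -1.88. NUMB was at -1.79 (SE 1.14) with LPS, with SCC13-TLR4 replicate 2 at -5.53 and all other arrays between 1.13 and 1.59.

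Of 6 repressors of cadherin genes 4 were tested, SNAI1, SNAI2, TWIST1 and TCF3, while ZEB1 was well above background on 8 arrays and ZEB2 on 1. In untreated cells all 4 were lower in SCC13-TLR4 cells, with a median of -0.13, and with LPS 2 were higher and 2 lower, with a median of -0.01. The largest differences were those of TCF3 without LPS, at -0.29 (SE 0.18), and of TWIST1 with LPS, at 0.25 (SE 0.20). None of the 4 had an unadjusted p under 0.05 in limma. Of all probes, 1.62% were higher and 0.877% lower at that level without LPS, and 1.27% and 1.45% with LPS. These repressors bind E-box letters of the kind CACCTG and, on the other strand, CAGGTG, which are the same site read in both directions. Promoter sequence was held for 5 of the 10 genes, namely CDH2, CDH4, CTNNA1, CTNNB1 and JUP, with 11 start sites between them, and the 250 bases before each start were searched on both strands. The letters occurred in 2 of the 11 windows, 1 of the 2 of JUP and 1 of the 2 of CDH4, against 17.5% of all 35116 promoter windows of that length in the RefSeq table of GRCh38.p14. That JUP window and the CTNNB1 window are shown because these catenins compete for the same place on the cadherin tail, with the E-box letters in capitals. The JUP window lies at chr17:41785977-41786226 on the minus strand and the CTNNB1 window at chr3:41199255-41199504 on the plus strand, both written 5′ to 3′ towards the start. In JUP the letters begin 54 and 43 bases before the start, and the CTNNB1 window has none. A match of letters is a description, not a binding site.
JUP: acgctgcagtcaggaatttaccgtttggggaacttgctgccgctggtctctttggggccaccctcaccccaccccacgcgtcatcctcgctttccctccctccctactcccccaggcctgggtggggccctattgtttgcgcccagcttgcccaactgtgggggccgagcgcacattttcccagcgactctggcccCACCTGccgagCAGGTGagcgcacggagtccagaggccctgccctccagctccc
CTNNB1: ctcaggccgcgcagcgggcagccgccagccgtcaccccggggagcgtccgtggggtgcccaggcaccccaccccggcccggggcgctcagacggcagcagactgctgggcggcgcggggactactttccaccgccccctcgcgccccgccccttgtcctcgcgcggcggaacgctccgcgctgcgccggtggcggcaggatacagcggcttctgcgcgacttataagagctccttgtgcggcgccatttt

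Of 19 genes of the beta-catenin destruction complex and of Wnt targets, 14 were tested. AXIN2, the target most often used to read Wnt signalling, was well above background on 1 array, LGR5 on 0 and NKD1 on 5. In untreated cells 4 were higher and 10 lower in SCC13-TLR4 cells, with a median of -0.09, and with LPS 7 were higher and 7 lower, with a median of 0.004. The target SP5 was lower at an unadjusted p under 0.05 in both, 1 gene of the 14 without LPS (0.877% of all probes) and 1 of 2 with LPS (1.45% of all probes), at -0.50 (SE 0.19, limma adjusted p = 0.999) without LPS and -0.47 (SE 0.18, limma adjusted p = 1.00) with LPS. CTNNBIP1, an inhibitor of beta-catenin, was the other with LPS, at -0.37 (SE 0.11, exact permutation p = 0.0286, limma adjusted p = 1.00). In untreated cells the largest difference was that of the kinase CSNK1A1, at -0.61 (SE 0.29, exact permutation p = 0.143). Except for those with the largest difference in a list, the partner genes given here with values were chosen after their p-values had been seen.

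Of the 4 partners of T-cadherin, ADIPOQ, which encodes its ligand adiponectin, was not well above background on any array. The adiponectin receptors ADIPOR1 and ADIPOR2 and the chaperone HSPA5 were tested. Their log2 fold changes lay between -0.13 and -0.006 in untreated cells and between -0.05 and 0.11 with LPS. In either comparison 0 of 3 had an unadjusted p under 0.05 in limma. Of all probes, 1.62% were higher and 0.877% lower at that level without LPS, and 1.27% and 1.45% with LPS. The largest differences of the 3 genes were those of HSPA5 without LPS, at -0.13 (SE 0.15), and of ADIPOR1 with LPS, at 0.11 (SE 0.13). Between LPS-treated and untreated cells, 0 genes of these 5 lists had an unadjusted p under 0.05 in limma in either line. Of all probes, 2.05% were higher and 0.432% lower at that level in SCC13-pUNO cells, and 0.948% and 0.379% in SCC13-TLR4 cells. Without the array whose TLR4 signal goes against its label, 2 of the genes in these lists had an unadjusted p under 0.05 in untreated cells, where 1.62% of all probes were higher and 0.732% lower. They were SP5, at -0.63 (SE 0.19, limma adjusted p = 1.00), and CTNNBIP1, at -0.25 (SE 0.12, limma adjusted p = 1.00). In that split 1 of the 4 repressors was higher and 3 lower, with a median of -0.17, and 6 of the 14 genes of the beta-catenin list were higher and 8 lower, with a median of -0.05.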

How the data were processed

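The authors hybridized Cy3-labelled RNA to 1-colour Agilent SurePrint G3 Human 8x60K arrays and deposited the intensity of each spot, background-subtracted and detrended by Agilent Feature Extraction 10.7.3.1, per the file headers without normalization between arrays. The deposited series matrix repeats these intensities (all 62976 spots). The log2 intensity minus the array's 75th percentile over spots that are not controls was used; outlier-marked spots were left out, and spots of a probe were averaged. The 75th percentile was 192 to 420, and 47.1% to 56.2% of spots passed the scanner software's test of being well above background. Precision is limited by the number of arrays.

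Probes were named through their accessions with the RefSeq table of GRCh38.p14 (28174 of 50599 probes had a symbol). The 22685 probes well above background throughout 1 or more groups entered 1 limma fit (version 3.58.1 under R 4.3.3) of the group means on all 15 arrays, with p-values adjusted by Benjamini-Hochberg; 22380 had a value on every array. The threshold was an adjusted p of 0.05. Exact permutation tests were two-sided. The described probe of a gene is its brightest tested one; of each list, the gene with the largest difference among probes well above background on all 15 arrays is named. Members and lists were chosen with earlier results of these data known.

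The 4 same-numbered pairs of LPS-treated arrays each share a slide, and their deviations from the group means correlated at 0.383 to 0.616. LPS-treated arrays of the 2 lines on the same slide with different numbers correlated at 0.307 to 0.394. Whether the numbers pair the arrays beyond the slide was not tested. In the other comparisons same-numbered arrays did not all go together (-0.537 to 0.616 over all 21 pairs).

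The fit was repeated after quantile normalization, after normexp correction of median spot and background signals (offset 50), without a filter or with one on all 15 arrays, with outlier-marked spots, with a replicate block, with slide as a factor, with array weights, with only the groups compared, with the mean over a gene's probes, and without each array in turn. The replicate block in the LPS-treated arrays alone was chosen later, once results were known. Simulated data were used to test the fit. Python 3.11.15, numpy 2.4.6, pandas 2.3.3 and matplotlib 3.10.9 were used.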

Additional observations from a re-analysis of the deposited data

Results flagged for a closer look

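Over the 13 tested member probes and TLR4, 42 groups of 4 arrays were examined for an array far from the others, and 3 had one, where chance gives about 1 in 20, or 2.1. The second CTNND1 probe (A_33_P3209716) was at -3.00 in replicate 2 of untreated SCC13-pUNO, the array whose TLR4 signal goes against its label, with the other arrays of the group at -2.68 to -2.62. The same probe was at -2.64 on LPS-treated SCC13-TLR4 replicate 1, with the others at -2.99 to -2.93. TLR4 (A_24_P69538) was at -4.74 on LPS-treated SCC13-pUNO replicate 4, with the others at -6.26 to -6.09. This probe was well above background on 0 of these 4 arrays.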

How the results depend on the processing

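CDH13 stayed higher in SCC13-TLR4 cells under every alternative run for the comparisons of lines, with log2 fold changes of 0.20 to 0.55 in untreated cells, 0.30 to 0.53 with LPS and 0.25 to 0.50 in the mean, and smallest limma adjusted p of 0.327, 0.453 and 0.080. No described probe of any member passed an adjusted p of 0.05 under any alternative. The sign of small differences turned in 98 recomputed values and stayed in 1124. Why they turned was not tested. The values of the deposited matrix equal the spot intensities, so that alternative has no values of its own.

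The number of probes with a limma adjusted p under 0.05 over the whole array, 0 between untreated lines, 0 between LPS-treated lines and 5 in the mean of both, depended on the setting. In the mean it was 0 with quantile normalization, with the filter on all 15 arrays, with outlier-marked spots kept and with array weights, 2 with no filter and 22 with slide as a factor. With array weights it was 8 between untreated lines, and with a fit of only the groups compared it was 5 between LPS-treated lines. When slide was a factor and replicate 2 of untreated SCC13-pUNO was dropped it was 11, 22 and 49. Leaving out 1 array at a time gave 0 to 7, 0 to 10 and 0 to 23, the highest of each without that same array, and 0 to 1 for LPS in SCC13-pUNO cells (1 without LPS-treated replicate 2), 0 to 3 for LPS in SCC13-TLR4 cells and 0 to 2 between the LPS responses (3 and 2 without untreated SCC13-TLR4 replicate 3). With the replicate block over all arrays the mean of both lines had 0 such probes, and with the replicate block in the LPS-treated arrays alone, an alternative chosen after seeing the data, there were 4 between LPS-treated lines. The block changed no call of a member.

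The signs that turned were the following log2 fold changes. With slide as a factor they were between untreated lines CTNNA1 0.055, CTNNB1 -0.26 and JUP 0.033, in the mean of both JUP 0.015, for LPS in SCC13-pUNO cells CDH1 -0.00069 and CDH2 0.013, for LPS in SCC13-TLR4 cells CDH13 -0.0024, CTNNB1 0.026 and JUP -0.068, and between the LPS responses CTNNA1 -0.023 and JUP -0.036. With slide as a factor and without that array they were between untreated lines CTNNA1 0.092, CTNNB1 -0.38, CTNND1 -0.022 and JUP 0.022, in the mean of both JUP 0.0090, for LPS in SCC13-pUNO cells CDH13 0.087, CDH1 -0.035 and CDH2 0.017, for LPS in SCC13-TLR4 cells CTNNB1 0.020 and JUP -0.069, and between the LPS responses CDH13 -0.081, CTNNA1 -0.060, CTNNB1 0.0025 and JUP -0.025. With normexp they were for LPS in SCC13-pUNO cells CDH1 -0.041, CDH2 0.028 and CTNND1 0.015, and for LPS in SCC13-TLR4 cells JUP -0.022. With array weights they were between untreated lines CTNND1 -0.014, between LPS-treated lines CDH2 0.077 and JUP 0.030, in the mean of both CTNNA1 -0.044, for LPS in SCC13-pUNO cells CDH1 -0.033, and between the LPS responses CDH1 0.016. With the mean over a gene's probes they were between untreated lines CTNNA1 0.013, CTNNB1 -0.033 and CTNND1 -0.032, and between LPS-treated lines CDH2 0.050. With quantile normalization they were between untreated lines CTNNA1 0.060, between LPS-treated lines JUP 0.029, and for LPS in SCC13-TLR4 cells JUP -0.023. With outlier-marked spots kept they were between untreated lines CTNNB1 -0.30, and for LPS in SCC13-TLR4 cells CTNNB1 0.23. Leaving out 1 array at a time gave ranges across 0 between untreated lines CTNNA1 -0.071 to 0.040, CTNNB1 -0.18 to 0.22 and CTNND1 -0.014 to 0.067, between LPS-treated lines CDH2 -0.13 to 0.13, CDH3 -0.11 to 0.017, CTNNA1 -0.036 to 0.073, CTNND1 -0.15 to 0.013 and JUP -0.12 to 0.10, in the mean of both CTNNA1 -0.025 to 0.036 and CTNND1 -0.061 to 0.020, for LPS in SCC13-pUNO cells CDH13 -0.20 to 0.070, CDH1 -0.072 to 0.041, CDH2 -0.16 to 0.10 and CTNND1 -0.085 to 0.077, for LPS in SCC13-TLR4 cells CDH13 -0.11 to 0.13, CDH1 -0.17 to 0.0037, CTNNB1 -0.19 to 0.010 and JUP -0.11 to 0.15, and between the LPS responses CDH13 -0.049 to 0.23, CDH1 -0.17 to 0.0030 and CTNNA1 -0.021 to 0.10.

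Probes near background limit what can be read of CDH4 and CDH11, and the dimmer CDH13 and CDH2 probes were not above background on every array.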
